A study of Mus musculus with 26 samples.

Results

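Loss of the CxxC domain of Kdm2b in osteoblasts of old mice was examined by RNA sequencing in 3 CKO-OLD and 3 OLD libraries, which are 6 of the 18 RNA libraries and of the 26 samples in the series. The libraries were chosen by their titles. CKO-OLD cells came from Kdm2b fl/fl mice that carried Ocn-cre, a recombinase driven by the osteocalcin promoter, and the red reporter Ai14, on a C57BL/6J background. Ocn-cre acts late in the osteoblast lineage, so cells that never expressed osteocalcin keep an intact Kdm2b. OLD cells came from C57BL/6J mice of 18 months with neither the floxed allele, the driver nor the reporter, and the labels give no months for the CKO-OLD mice. OLD was the single untreated old group analysed here. The deletion, the driver, the reporter, the mouse line and the screening named next therefore cannot be told apart between the groups. Any difference in months of age cannot be told apart either. All cells were isolated from femur and grown in medium with fetal bovine serum, and those of the knockout mice were also screened after isolation. For orientation, values are also given for CON-OLD-iBP, old cells of the Ocn-cre Ai14 control treated with iBP (an abbreviation left unexplained by the submitters), and for CKO-YOUNG and CON-YOUNG, the young knockout and its Ocn-cre Ai14 control, each with 3 libraries.

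Kdm2b is a subunit of PRC1.1, a Polycomb complex that places ubiquitin on histone H2A and helps to keep developmental genes silent. Its CxxC zinc finger binds DNA rich in unmethylated CG dinucleotides and brings the complex to CpG islands, where many promoters lie. In bone, osteoblasts lay down and mineralise matrix, and canonical Wnt signalling through beta-catenin is a main driver of their activity. The series' title names PRC1.1 inhibition and Wnt signalling, and the comparison asks which genes differ in old osteoblasts without the domain.

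The OLD libraries did not form 1 uniform group. Total counts were 67721904, 53847779 and 65924327 in OLD 1, 2 and 3 and 46272076, 53254420 and 52694957 in CKO-OLD 1, 2 and 3. The nuclear RNA Malat1 took 0.0377%, 0.173% and 0.0368% of the OLD counts and 0.182%, 0.176% and 0.179% of the CKO-OLD counts, so that OLD 2 alone among the OLD libraries lay beside the knockout. Xist, expressed by female cells, was at 481, 0.0707 and 454 CPM (counts scaled to 1000000 per library with TMM factors) in OLD 1, 2 and 3 and at 0, 0.28 and 0 CPM in CKO-OLD. The Y-linked gene Ddx3y was at 0, 36.2 and 0 CPM in OLD and at 66.2, 66.1 and 76.5 CPM in CKO-OLD. The first principal component of the 6 libraries held 50.7% of the variance and put OLD 1 and OLD 3 at -93.5 and -94.6, against 38.2 for OLD 2 and 20.7 to 68.1 for CKO-OLD. OLD 1 and OLD 3 also resembled each other more than any other pair within these groups, with a Spearman correlation across genes of 0.995 and a squared difference 6.26 times counting noise, against 29.3 to 86 times in the other pairs. Their difference was above counting noise, which does not show that they came from separate samples. They were counted as 2 libraries, and the Tcfl5 result is also given with the pair summed. Sex-linked transcripts and Malat1 share thus move with the contrast, and their part in the results was not tested. Where they differ, results are therefore given beside 2 further fits, 1 against OLD 2 alone (the libraries above 0.05% Malat1, here called the high-Malat1 set) and 1 without OLD 2. The labels do not tie the replicates to separate mice or cultures, and a p-value here measures only how far these samples spread, perhaps for technical reasons.

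The defining markers of osteoblasts were present in all 6 libraries. The 14 osteoblast markers together took 3.93%, 3.21% and 3.94% of the OLD counts and 4.28%, 4.37% and 3.11% of the CKO-OLD counts, and none of them was at 0 in either group. Transcripts of other cell types were unequal, and in bulk RNA fewer cells of a type and less RNA per cell cannot be told apart. The part of the screening of knockout cells in these shares was not tested. The 22 macrophage and monocyte markers took 1.18%, 0.152% and 1.17% in OLD against 0.236%, 0.654% and 0.151% in CKO-OLD. Osteoclast markers (11 genes) took 0.234%, 0.0349% and 0.239% against 0.027%, 0.0491% and 0.0275%, and the 14 markers of marrow stroma and adipocytes took 0.309%, 0.0571% and 0.303% against 0.0645%, 0.087% and 0.0818%. For these 3 lists OLD 1 and OLD 3 were high and OLD 2 lay near or within the knockout range. Chondrocyte markers (18 genes) took 0.196%, 0.484% and 0.194% in OLD and 0.248%, 0.257% and 1.29% in CKO-OLD, where CKO-OLD 3 stood apart.

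**Figure D1:**
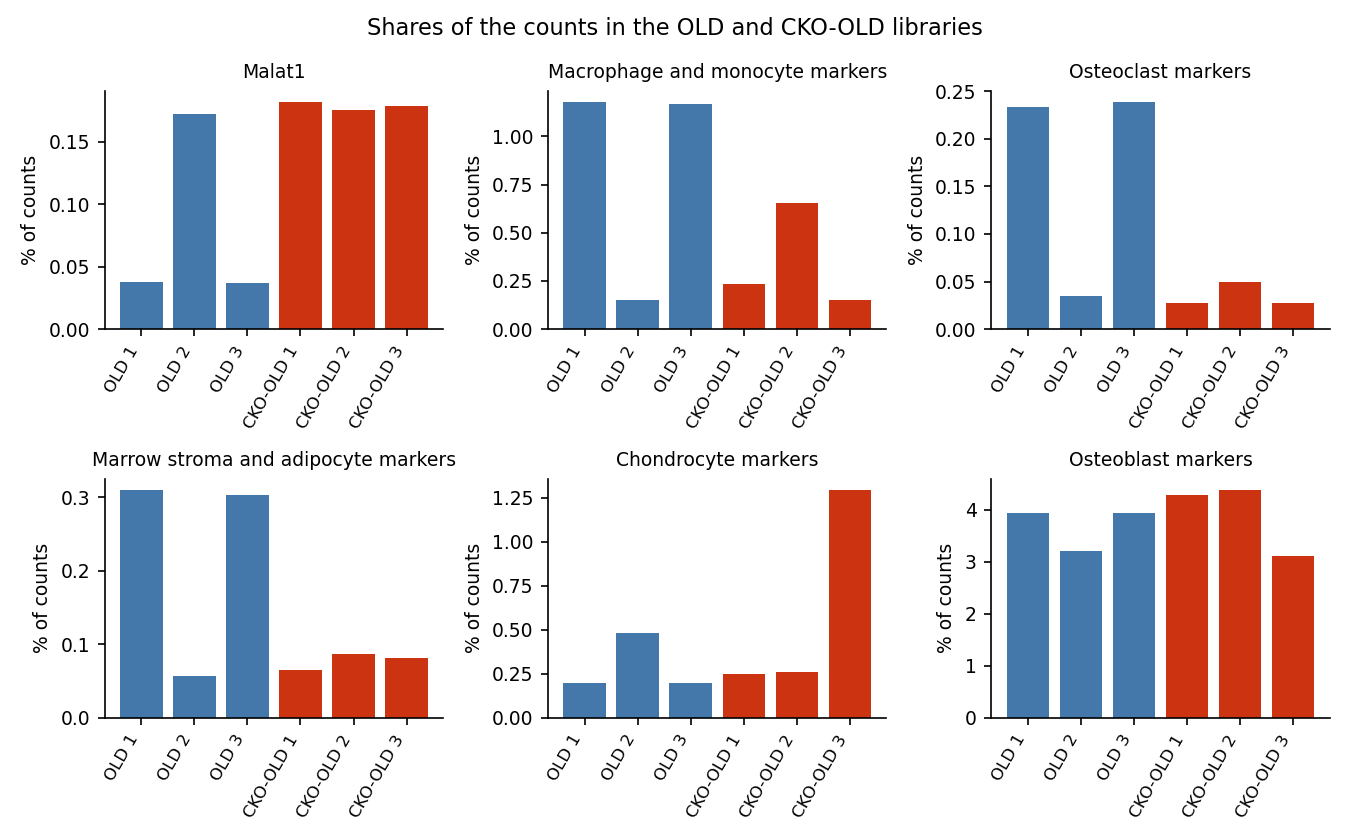
Percent of each library's counts taken by Malat1 and by 5 lists of cell type markers; 1 bar is 1 library, blue for OLD and red for CKO-OLD, with bars starting at 0. OLD 2 lies with the CKO-OLD libraries for Malat1 (0.173% against 0.176% to 0.182%) and for osteoclast markers, while OLD 1 and OLD 3 lie together.

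The targeted gene itself was read first. Kdm2b stood at 34.3, 19.3 and 31.1 CPM in OLD 1, 2 and 3 and at 23.4, 57.2 and 28.4 CPM in CKO-OLD 1, 2 and 3, and the groups overlapped (log2 fold change 0.36, SE 0.41, edgeR quasi-likelihood adjusted p = 0.863). The log2 fold change of Kdm2b was 0.91 against OLD 2 alone and 0.15 without OLD 2. A count summed along the gene cannot check the loss of 1 domain, since transcripts without it are still counted.

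Tcfl5 was the gene that changed in the fit over all libraries. It encodes a basic helix-loop-helix transcription factor best known from the testis. Its level was 0.971, 1.15 and 1.37 CPM in OLD 1, 2 and 3 and 16.6, 11.9 and 11.9 CPM in CKO-OLD 1, 2 and 3. Each knockout library was thus far above each OLD library, and OLD 2 did not differ in rank from its group. The means were 1.16 ± 0.202 and 13.5 ± 2.72 CPM (SD, n = 3), a log2 fold change of 3.53 (SE 0.42, edgeR adjusted p = 0.00706). Tcfl5 rose by 3.55 against OLD 2 alone (edgeR adjusted p = 0.0213) and by 3.52 without OLD 2 (adjusted p = 0.023). The call depended on which OLD library was left out: without OLD 1 the log2 fold change was 3.41 (edgeR adjusted p = 0.138), without OLD 3 it was 3.67 (adjusted p = 0.0733), and with OLD 1 and OLD 3 summed to 1 library it was 3.53 (adjusted p = 0.0965). With OLD 1 and OLD 3 removed from the fit altogether, so that OLD 2 was the only OLD library, it was 3.57 (adjusted p = 1.0). In CON-OLD-iBP, where Kdm2b is intact, Tcfl5 stood at 1.11, 1.56 and 1.66 CPM, beside the OLD values. In the young pair, which shares no library with the old one, it stood at 7.15, 7.35 and 1.85 CPM in CON-YOUNG and at 46.8, 50.7 and 51.2 CPM in CKO-YOUNG (log2 fold change 3.18, edgeR adjusted p = 0.00942). That young call was lost when the young pair was fitted alone (3.18, adjusted p = 0.357) and when it was fitted alone with the replicate number as a block (3.39, adjusted p = 0.515). Called genes made up 0.00604% of the 16566 genes tested (1 higher, 0 lower), against 1352 genes (8.16%) at an unadjusted p under 0.05, of which 636 were higher (3.84%) and 716 lower (4.32%). Over all tested genes DESeq2 called 181 (1.09%; 143 higher and 38 lower) and limma-voom 6820 (41.2%), while edgeR on the 6 libraries alone called 4 of 15211 (0.0263%), 3 of them higher (0.0197%).

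The CxxC finger reads CG dinucleotides, so the promoter windows of a few genes described here are shown with each CG in capitals (a CG reads the same on both strands). The windows run from 250 bases before to 50 bases after the annotated start, are given 5′ to 3′ on the gene's strand, and come from RefSeq on GRCm38.p6. They were matched by symbol, and the build differs from the mm39 build of the counts. Tcfl5 (chr2:180642642-180642941, minus strand) and Tmem132e (chr11:82388650-82388949, plus strand) are shown for genes far higher in CKO-OLD. Isyna1 (chr8:70594231-70594530, plus strand) and Obsl1 (chr1:75506403-75506702, minus strand) are a pair called higher against OLD 2 alone. Klra4 (chr6:130067222-130067521, minus strand) is shown for a gene lower in CKO-OLD. For Obsl1 no letters are printed, and only its CG count is given.
Tcfl5: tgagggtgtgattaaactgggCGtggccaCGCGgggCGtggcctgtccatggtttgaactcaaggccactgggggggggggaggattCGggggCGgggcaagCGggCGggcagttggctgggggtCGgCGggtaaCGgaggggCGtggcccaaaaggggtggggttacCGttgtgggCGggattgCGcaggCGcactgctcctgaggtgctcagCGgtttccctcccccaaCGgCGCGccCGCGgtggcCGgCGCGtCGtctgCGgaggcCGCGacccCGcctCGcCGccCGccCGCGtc
Tmem132e: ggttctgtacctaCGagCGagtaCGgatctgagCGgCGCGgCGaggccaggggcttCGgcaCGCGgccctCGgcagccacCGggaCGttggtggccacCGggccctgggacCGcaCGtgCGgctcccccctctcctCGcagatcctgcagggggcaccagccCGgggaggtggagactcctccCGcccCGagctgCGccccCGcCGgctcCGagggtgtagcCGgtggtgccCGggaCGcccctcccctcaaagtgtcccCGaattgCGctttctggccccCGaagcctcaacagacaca
Isyna1: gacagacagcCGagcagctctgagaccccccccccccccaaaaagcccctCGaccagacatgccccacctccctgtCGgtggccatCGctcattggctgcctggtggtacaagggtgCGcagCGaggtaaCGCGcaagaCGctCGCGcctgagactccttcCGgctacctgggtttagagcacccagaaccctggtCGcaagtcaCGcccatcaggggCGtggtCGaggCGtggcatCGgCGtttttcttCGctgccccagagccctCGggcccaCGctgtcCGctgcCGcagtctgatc
Obsl1: 
Klra4: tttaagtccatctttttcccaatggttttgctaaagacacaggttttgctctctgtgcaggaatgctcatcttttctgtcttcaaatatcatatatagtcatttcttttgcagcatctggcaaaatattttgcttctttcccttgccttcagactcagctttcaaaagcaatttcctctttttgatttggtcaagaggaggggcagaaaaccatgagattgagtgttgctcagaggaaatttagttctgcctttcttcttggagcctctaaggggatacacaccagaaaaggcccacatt
The windows of Tcfl5, Tmem132e, Isyna1, Obsl1 and Klra4 hold 35, 31, 24, 8 and 0 CG. Over all 32851 windows in the table the median was 7 (quartiles 3 and 20), and 94.6% hold at least 1. Windows were matched for 78% of the tested genes, and gene groups were not compared by CG content. The windows shown are examples, with 1 lower gene among them, and cannot set higher against lower genes. A CG in a window is a description of the letters, not a binding site.

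Many more genes were separated by library than passed the test. With 3 libraries on each side many genes separate in this way by chance alone, so separation by itself is not a call. Where the higher group averaged 1 CPM or more, all 3 CKO-OLD libraries lay above all 3 OLD libraries for 1144 genes (6.91% of those tested) and below them for 1240 (7.49%). The balance between directions depended on scaling: CPM on raw totals gave 1384 higher and 909 lower. The median log2 fold change over all tested genes was -0.01, and 48.2% of the genes were above 0. Against OLD 2 alone the share above 0 was 50.6%.

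**Figure D2:**
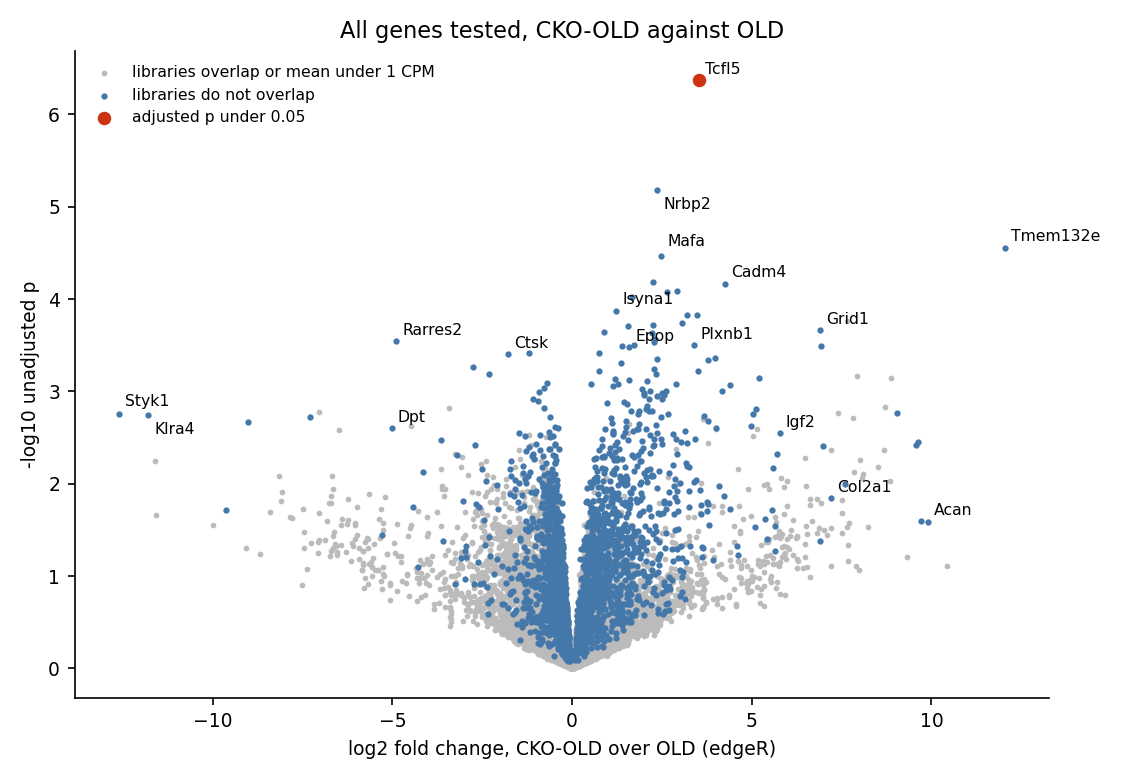
Log2 fold change of CKO-OLD over OLD (x axis) against -log10 of the unadjusted edgeR p (y axis) for the 16566 tested genes; red marks an adjusted p under 0.05, blue marks genes whose 3 CKO-OLD and 3 OLD libraries do not overlap. Tcfl5 alone is red; for Tmem132e, Styk1 and Klra4, which are at 0 in 1 group, the position on the x axis is set by the model's prior and is not a measured fold.

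Among the non-overlapping genes, the 12 with the largest fold changes above OLD (mean of at least 5 CPM in CKO-OLD, unadjusted p under 0.05) included neuronal, cartilage and growth factor genes. Tmem132e, which encodes a membrane protein of the nervous system, had 0 counts in all 3 OLD libraries and 4.56, 14.3 and 8.02 CPM in CKO-OLD, at least 575-fold higher if the OLD libraries are given 3 counts between them (a limit that covers counting error only; edgeR adjusted p = 0.142). Grid1, a glutamate receptor of the delta family, stood at 0.116, 0.23 and 0 CPM in OLD and at 7.96, 20.9 and 11.9 CPM in CKO-OLD (log2 fold change 6.88, SE 1.42, adjusted p = 0.203). Both were also near 0 in CON-OLD-iBP, with 0.141, 0 and 0 CPM of Tmem132e and 0, 0.165 and 0.162 CPM of Grid1. Igf2, the imprinted fetal growth factor, was at 2.07, 1.15 and 2.03 CPM in OLD and 50.7, 115 and 123 CPM in CKO-OLD (log2 fold change 5.77, SE 1.62, adjusted p = 0.373). One CON-OLD-iBP library reached 59.8 CPM of Igf2 while the other two had 1.17 and 2.8 CPM, so that the untreated and treated controls did not share 1 level.

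Several of the 12 were carried by 1 knockout library. Acan, the cartilage proteoglycan aggrecan, was at 16.3, 3.1 and 501 CPM in CKO-OLD against 0.0724, 0.495 and 0 CPM in OLD. Col2a1, the main cartilage collagen, was at 499, 87.4 and 8015 CPM against 21.9, 12.2 and 24.2 CPM. In both, CKO-OLD 3 was the high library, as it was for the summed chondrocyte markers. Meltf (3.02, 0.315 and 105 CPM), Bmp7 (0.905, 0.403 and 17.6 CPM), Cntn1 (0.221, 2.68 and 16.1 CPM), Barx1 (1.27, 3.56 and 15.9 CPM) and Moxd1 (3.5, 1.65 and 14.3 CPM) were likewise highest in CKO-OLD 3, against at most 0.69 CPM in any OLD library. The ribosomal pseudogene Rps18-ps4 was at 115, 0.473 and 0.464 CPM, high in CKO-OLD 1 only, and reads from near-identical copies cannot be told apart for it. Ngfr, the low-affinity neurotrophin receptor of Schwann cells and stromal progenitors, was at 24.1, 23.8 and 10.6 CPM against 0.116, 1.13 and 0 CPM. No edgeR adjusted p of the 12 was below 0.142.

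The 12 largest differences below OLD included a pair of genes with no count in any CKO-OLD library. Styk1, a receptor-like pseudokinase, was at 8.95, 23.2 and 7.45 CPM in OLD, at least 716-fold lower in CKO-OLD when that group is given 3 counts in all (edgeR adjusted p = 0.334). Klra4, a natural killer cell receptor of the Ly49 family, was at 7.04, 9.07 and 6.6 CPM in OLD, at least 411-fold lower in CKO-OLD (adjusted p = 0.34). The Ly49 genes are near-identical neighbours, so its counts are uncertain. CON-OLD-iBP held 6.28, 5.58 and 2.25 CPM of Styk1, each below the lowest OLD library, and 21, 7.03 and 6.02 CPM of Klra4. Klra4 had 0 counts in all 3 CON-YOUNG libraries, while Styk1 was uneven there, at 0.0835, 1.6 and 25.9 CPM. In the young knockout both were at 0 in CKO-YOUNG 1 and 2, while CKO-YOUNG 3 held 1.27 CPM of Klra4 and 2.48 CPM of Styk1. The other 10 kept a level above 0 in CKO-OLD. Thy1, a surface marker of fibroblasts and progenitors, was at 144, 99.2 and 149 CPM against 15.5, 51.4 and 11.4 CPM (log2 fold change -2.32, SE 1.02, adjusted p = 0.59). Acta1, skeletal muscle actin, was at 13.9, 8.47 and 16 CPM against 1.43, 1.86 and 3.11 CPM, and Fgl2, an immunomodulatory fibrinogen-like protein, at 10.4, 30.3 and 9.36 CPM against 2.45, 3.99 and 3 CPM. The matrix protein gene Dpt, the chemerin gene Rarres2, the retinoic acid synthase gene Aldh1a2, Fam124a, Lnx1 and Fxyd1 were each highest in OLD 1 and OLD 3. For Rarres2 the OLD values were 21.3, 0.761 and 19.8 CPM, with OLD 2 close to the 0.442 to 0.5 CPM of CKO-OLD.

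The knockout in young cells gave an independent set of libraries, though in the same fit. Of the 1144 genes higher without overlap in old cells, 264 were also higher without overlap in CKO-YOUNG than in CON-YOUNG. They are 23.1% of the old list, against 4.29% of all tested genes in the young list. They are also 37.1% of the 711 young genes, against 6.91% of all tested genes in the old list. In the other direction, 59 genes were lower in both. They are 4.76% of the 1240 (2.72% of all tested genes) and 13.1% of the 450 young genes (7.49% of all tested genes). Opposite directions were seen for 19 genes higher in old and lower in young, 1.66% of the 1144 against 2.72% of all tested genes. Another 31 were lower in old and higher in young, 2.5% of the 1240 against 4.29% of all tested genes. Of the 12 largest increases in old cells 6 had the same sign in young cells and 5 did not overlap there, and of the 12 largest decreases 10 had the same sign and 2 did not overlap. Over all tested genes 47.5% were above 0 in the young comparison, so the 6 of 12 is near that share. Old and young libraries differ in Malat1 share as well: libraries 1 and 2 of both young groups lay below 0.05% Malat1, and CKO-YOUNG 3 held Xist at 372 CPM together with Ddx3y at 21.3 CPM.

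The genes called in young cells were then read in old cells. At an edgeR adjusted p under 0.05, 21 genes (0.127% of those tested) were higher in CKO-YOUNG. The young pair fitted alone gave 4 genes, all among the 21, and with the replicate number as a block it gave 0 (713 at an unadjusted p under 0.05). In old cells 19 of these 21 had a log2 fold change above 0, with a median of 2.17, and 17 were higher without overlap, against 6.91% of all genes. Against OLD 2 alone 20 of the 21 were above 0. Nrbp2, a pseudokinase gene, had the second smallest p of the old comparison, with 7.26, 6.76 and 6.01 CPM in OLD and 38.3, 35.5 and 29.5 CPM in CKO-OLD (log2 fold change 2.37, SE 0.35, edgeR adjusted p = 0.0549). Mafa, a transcription factor of pancreatic beta cells, stood at 0.449, 0.973 and 0.716 CPM against 3.78, 4.75 and 3.36 CPM (adjusted p = 0.142). Npr1, a natriuretic peptide receptor, stood at 0.362, 0.283 and 0.298 CPM against 3.46, 4.52 and 6.84 CPM (adjusted p = 0.228), and the growth factor gene Mdk at 4.48, 2.6 and 4.52 CPM against 21.8, 19.6 and 10.8 CPM (adjusted p = 0.288). The synaptic scaffold gene Caskin1 stood at 0.855, 0.849 and 0.403 CPM against 5.05, 5.92 and 4.88 CPM (adjusted p = 0.173). In these 5 genes all 3 knockout libraries were well above all 3 OLD libraries. Bdh1, a ketone body enzyme, and Spon1, a matrix protein, were the 2 of the 21 below 0 in old cells: Bdh1 was at 6.11, 3.77 and 6.86 CPM in OLD and 5.71, 5.45 and 4.38 CPM in CKO-OLD, and Spon1 at 3.77, 3.41 and 4.42 against 3.3, 4.29 and 2.54 CPM. Nrbp2, Npr1, Mdk, Caskin1, Bdh1 and Spon1 were chosen after their values were seen.

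**Figure D3:**
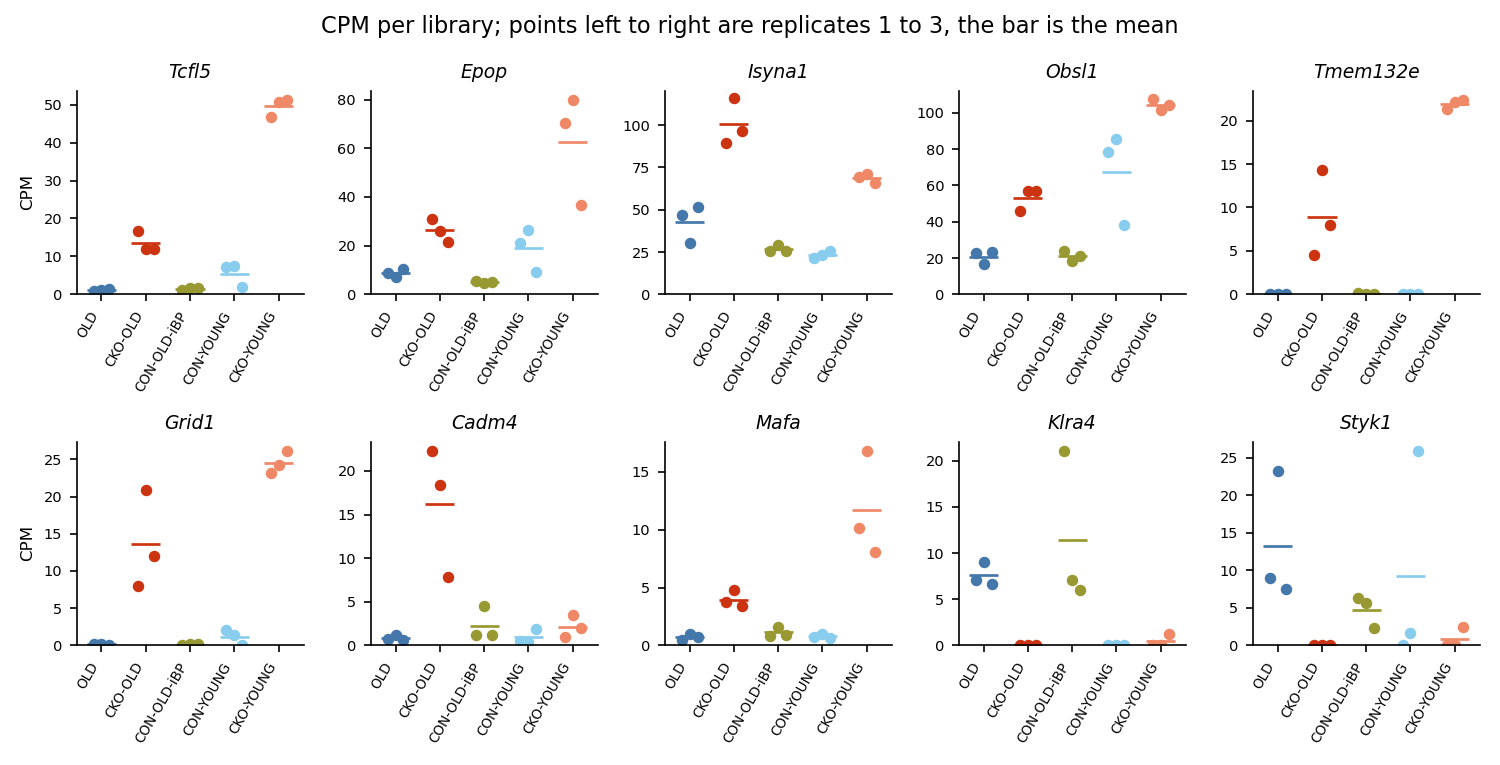
CPM of 10 genes (1 panel each, linear axis from 0) in OLD, CKO-OLD, CON-OLD-iBP, CON-YOUNG and CKO-YOUNG; points from left to right are libraries 1 to 3 and the bar is their mean. Tcfl5, Epop, Isyna1, Tmem132e, Grid1 and Mafa are higher in the knockout than in its reference at both ages. Cadm4 (7.84 to 22.3 CPM in CKO-OLD) stays between 0.981 and 3.46 CPM in CKO-YOUNG, and Klra4 and Styk1 are at 0 in CKO-OLD.

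Against OLD 2 alone, in the high-Malat1 set, 9 genes passed (0.0543% of those tested), 4 higher (0.0241%) and 5 lower (0.0302%). This fit has 8 residual degrees of freedom and assumes that the lone OLD library varies like the other groups. With OLD 1 and OLD 3 removed from the fit and no library sets, 0 genes passed (245 at an unadjusted p under 0.05), so each call of this fit was lost there. Besides Tcfl5, the 3 higher genes were Isyna1, Epop and Obsl1. Isyna1, the enzyme that makes inositol phosphate from glucose phosphate, stood at 47.1, 30.6 and 51.4 CPM in OLD and at 89.4, 116 and 96.4 CPM in CKO-OLD, and rose by 1.72 on the log2 scale in this fit (edgeR adjusted p = 0.023). Epop, a PRC2-associated protein, stood at 8.91, 7.2 and 10.2 CPM against 31.1, 26.1 and 21.6 CPM and rose by 1.87 (adjusted p = 0.0353). Obsl1, a cytoskeletal adaptor, stood at 22.5, 16.6 and 23.4 CPM against 45.7, 57.1 and 56.8 CPM and rose by 1.68 (adjusted p = 0.0304). None of the 3 overlapped between the groups over all 6 libraries, but in the fit over all OLD libraries their adjusted p was 0.203, 0.203 and 0.24.

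The 5 lower genes of that fit were Styk1, Klra4, Il1rl1, St3gal1 and AA465934. Il1rl1, the receptor of interleukin 33, stood at 75.1, 182 and 70.9 CPM in OLD and 42.3, 30 and 16.1 CPM in CKO-OLD, and St3gal1, a sialyltransferase, at 121, 207 and 119 CPM against 86.3, 77.9 and 84 CPM. In both, OLD 2 was the highest OLD library. AA465934 was at 6.56 CPM in OLD 2 against 0.159 and 0.254 CPM in OLD 1 and OLD 3, so its difference belongs to that library. With a term for library set over all libraries, 4 genes passed (0.0241%), 3 of them higher (0.0181%): Tcfl5 (log2 fold change 3.42, edgeR adjusted p = 0.0466), Isyna1 (1.81, adjusted p = 0.00143) and Epop (1.64, adjusted p = 0.0466) were higher and Styk1 was lower.

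Without OLD 2, 48 genes passed (0.281% of 17108 tested), 29 higher (0.17%) and 19 lower (0.111%). OLD 2 had no part in that call, but the same CKO-OLD libraries chose the genes, so its place relative to them is given as a description. OLD 2 lay below all 3 CKO-OLD libraries for 21 of the 29 higher genes and above them for 1. For the 19 lower genes it lay above all CKO-OLD libraries in 11 and below them in 4. Over all 16566 genes tested with OLD 2 in the fit, OLD 2 lay below all CKO-OLD libraries for 21.1% and above them for 23.2%. Cacnb3, a calcium channel subunit, stood at 42.2, 98.1 and 46 CPM in OLD and 150, 143 and 117 CPM in CKO-OLD, and Efna5, an ephrin ligand, at 11.7, 32.4 and 13.4 against 42.1, 56 and 73.1 CPM, with OLD 2 between the other OLD libraries and the knockout. Ctsk, the bone-resorbing protease of osteoclasts, stood at 659, 201 and 666 CPM against 165, 164 and 116 CPM. The osteoclast markers were high in the same 2 OLD libraries, and their part in this difference was not tested. Psmb5, Cav2 and Cdk20 were called without OLD 2 although OLD 2 lay at or beyond the knockout: Psmb5, a proteasome subunit, was at 42.8, 141 and 49.8 CPM against 176, 104 and 127 CPM, and Cav2, a caveolin, at 64.6, 21.2 and 60.6 CPM against 26.3, 30.5 and 21.5 CPM.

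Gene lists were read by role, by counts and medians beside the background of all genes (48.2% above 0, 6.91% higher and 7.49% lower without overlap), and not tested as lists. The PRC1.1 subunits, the machinery that the deletion touches, had no shared direction. Of 10 PRC1.1 subunit genes 5 were above 0 (median log2 fold change 0.01), and 1 did not overlap. That gene was Bcor, the corepressor that links PRC1.1 to its targets, at 32.7, 37.2 and 30.6 CPM in OLD and 69.2, 120 and 97.8 CPM in CKO-OLD (log2 fold change 1.51, edgeR adjusted p = 0.367, DESeq2 adjusted p = 0.033). It stood at 82.1, 86.6 and 25.9 CPM in CON-YOUNG and 194, 239 and 101 CPM in CKO-YOUNG, again without overlap. Bcorl1 was also higher in the mean of CKO-OLD, with overlap (log2 fold change 0.99, edgeR adjusted p = 0.509). Of 12 PRC2 genes 5 were above 0 (median -0.11), with Epop higher and Rbbp7, a histone chaperone subunit, lower without overlap. Other PRC1 subunits (14 of 16 above 0, median 0.32) and other CxxC proteins (9 of 11, median 0.31) had medians of 0.01 and 0.08 against OLD 2 alone.

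Developmental transcription factors, classic Polycomb targets that are silent in most differentiated cells, lay higher in CKO-OLD. Of 89 listed genes 56 passed the filter on low counts, 51 of these were above 0 with a median log2 fold change of 1.20, and 22 were higher and 0 lower without overlap. The filter keeps a silent gene through the group where it is on, so the untested members are not part of these counts. The medians printed in the text did not move when members with a group at 0 were set at their bound of 3 counts. Against OLD 2 alone 45 of the 56 were above 0 (median 1.25). Foxl2, a factor of ovary and eyelid development, stood at 0.0724, 0.141 and 0.0448 CPM in OLD and 2.96, 4.1 and 2.09 CPM in CKO-OLD (log2 fold change 5.12, edgeR adjusted p = 0.334). En2, a factor of the midbrain and hindbrain, had 0 counts in OLD and 0.483, 1.31 and 0.875 CPM in CKO-OLD, at least 57.2-fold higher against 3 counts over the OLD group. In CON-OLD-iBP Foxl2 was at 0.364, 0.349 and 0 CPM and En2 at 0. Nkx6-1 differed in that respect: it stood at 0.174, 0 and 0 CPM in OLD and 1.55, 3.4 and 1.89 CPM in CKO-OLD, but also at 4.02, 1.19 and 2.78 CPM in CON-OLD-iBP. In the young pair 40 of the 56 were above 0 (median 0.49).

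Hox genes, which specify position along the body and are held by Polycomb outside their domain, were above 0 in 28 of 35 tested members (median log2 fold change 0.42) with 7 higher and 0 lower without overlap. Hoxa11, a patterning gene of the forearm and lower leg, stood at 1.46, 4.4 and 2.61 CPM in OLD and 12.2, 10.9 and 19.9 CPM in CKO-OLD (2.34, edgeR adjusted p = 0.367), and Hoxc5 at 2.46, 4.63 and 2.91 against 6.11, 9.32 and 8.7 CPM (1.27, adjusted p = 0.277). Hoxa11 was at 15, 12 and 9.71 CPM in CON-OLD-iBP too, above every OLD library, while Hoxc5 was at 4.2, 5.67 and 4.5 CPM there. Neuronal genes were above 0 in 17 of 22 tested members of 30 listed (median 0.70), 7 of them higher without overlap. Beside Tmem132e and Grid1, Adgrb1, an adhesion receptor of neurons and phagocytes, stood at 0, 0.248 and 0.179 CPM in OLD and 2.73, 3.5 and 2.79 CPM in CKO-OLD (4.40, adjusted p = 0.28). It was at 24.5, 21.3 and 11.9 CPM in CKO-YOUNG against at most 0.215 CPM in CON-YOUNG. Of 17 tested meiosis and germline genes of 30 listed, 10 were above 0 (median 0.10), and Tcfl5 was the single one higher without overlap. In both lists, too, the filter keeps a silent gene through the group where it is on, and untested members are not counted.

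Wnt ligands and R-spondins, the secreted activators of the pathway, were above 0 in all 17 tested members of 23 listed (median log2 fold change 1.25), 8 of them higher without overlap and none past the test. Here too the filter on low counts keeps a silent gene through the group where it is on, and untested members are not counted. Wnt10b, a bone-forming ligand, stood at 5.68, 9.59 and 5.36 CPM in OLD and 28.2, 30.6 and 15.2 CPM in CKO-OLD (log2 fold change 1.84, edgeR adjusted p = 0.334). Wnt6 stood at 0.0435, 0.124 and 0.0597 CPM against 1.41, 3.47 and 2.7 CPM (5.04, adjusted p = 0.334), and Wnt4 at 3.98, 6 and 3.75 CPM against 11.2, 11 and 10.6 CPM. CON-OLD-iBP held less Wnt10b and Wnt6 than CKO-OLD did, with 6.38, 13.9 and 2.84 CPM and 0.303, 0.183 and 0 CPM. Wnt11, a mainly non-canonical ligand, went otherwise: 3.53, 16.2 and 3.72 CPM in OLD, 24.3, 21.3 and 28.9 CPM in CKO-OLD and 61.8, 51.2 and 29.6 CPM in CON-OLD-iBP. Wnt7a had 0 counts in OLD and 2.05, 0.455 and 0.411 CPM in CKO-OLD, at least 62.4-fold higher against 3 counts over the group, and CON-OLD-iBP held 0.465, 1.1 and 0.649 CPM. The list was less uniform in the other readings, with 14 of 17 above 0 and a median of 0.68 against OLD 2 alone and 10 of 17 and 0.26 in young cells.

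Receptors and inhibitors of Wnt were both higher in the median. Wnt receptors and co-receptors were above 0 in 17 of 19 (median 0.51), and 1, Fzd2, was higher without overlap, at 32.4, 51 and 31.3 CPM in OLD and 60.8, 70.7 and 62.3 CPM in CKO-OLD. All 9 tested secreted antagonists of 14 listed were above 0 (median 0.73), 4 of them without overlap. The limit set by the filter on low counts holds for this list as well. Frzb, a decoy for Wnt in cartilage, stood at 3.23, 5.22 and 3.07 CPM against 15, 24.5 and 28.6 CPM (log2 fold change 2.56, edgeR adjusted p = 0.29), and Wif1, which binds Wnt outside the cell, at 16.3, 10.1 and 15.1 CPM against 62.8, 33.2 and 91.8 CPM (2.18, adjusted p = 0.477). Notum, the enzyme that strips the lipid from Wnt proteins and is itself a beta-catenin target, stood at 10.2, 26.2 and 8.01 CPM against 67.9, 52.9 and 70.6 CPM. Wif1 and Notum overlapped with CON-OLD-iBP, which had 86.2, 44.5 and 15.3 CPM and 83.7, 36.2 and 34.2 CPM.

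Beta-catenin target genes, the readout of canonical signalling, were above 0 in 16 of 23 (median 0.27) with 4 higher and 1 lower without overlap, and had a median of 0.04 against OLD 2 alone. Axin2, a direct target and feedback inhibitor, stood at 2.84, 3.29 and 2.45 CPM in OLD and 5.05, 6.39 and 8.09 CPM in CKO-OLD (log2 fold change 1.19, SE 0.62, edgeR adjusted p = 0.644). Lef1, the transcription factor that pairs with beta-catenin, stood at 0, 0.177 and 0.313 CPM against 1.09, 0.823 and 2.02 CPM (2.99, SE 1.01, adjusted p = 0.494), and its relative Tcf7 at 5.17, 2.71 and 6.13 CPM against 9.05, 7.41 and 6.57 CPM. For Axin2 and Lef1 no knockout library reached down to the OLD values, but the CON-OLD-iBP libraries lay in the same range or above it, at 7.27, 16 and 12.4 CPM of Axin2 and 1.96, 1.36 and 1.28 CPM of Lef1. Tnfrsf11b, the decoy receptor that restrains osteoclasts, was at 18.7, 31.3 and 18.7 CPM against 24.3, 15.8 and 317 CPM, where CKO-OLD 3 alone was high.

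**Figure D4:**
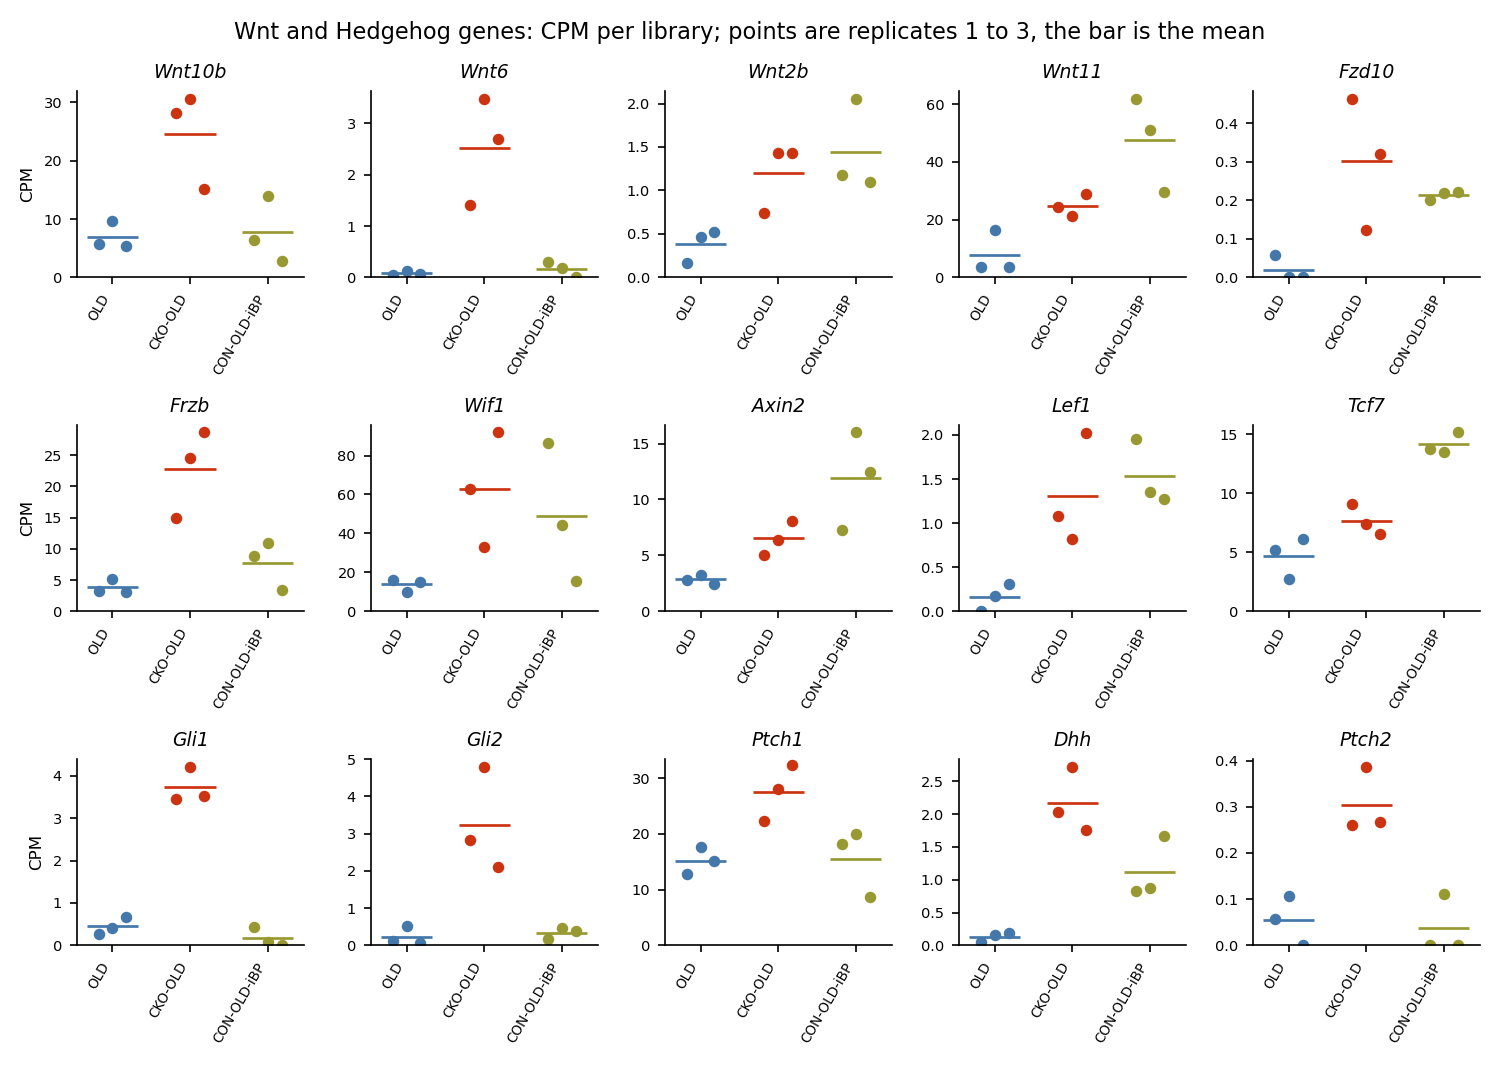
CPM of 10 Wnt genes and 5 Hedgehog genes (1 panel each, linear axis from 0) in OLD, CKO-OLD and CON-OLD-iBP; points from left to right are libraries 1 to 3 and the bar is their mean. Among the groups drawn, Wnt10b, Wnt6, Gli1 and Gli2 are high in CKO-OLD alone, whereas Wnt11, Axin2, Lef1 and Tcf7 are also high in CON-OLD-iBP.

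Hedgehog genes were above 0 in 12 of 13 tested members (median log2 fold change 0.89), with 5 higher without overlap: the ligand Dhh, the receptor and target Ptch1, the transcription factors Gli1 and Gli2 and the decoy Hhip. Gli1, whose transcription reports pathway activity, stood at 0.275, 0.407 and 0.672 CPM in OLD and 3.46, 4.2 and 3.54 CPM in CKO-OLD (log2 fold change 3.04, edgeR adjusted p = 0.399). Gli2, the main activator, stood at 0.116, 0.513 and 0.0746 CPM against 2.84, 4.78 and 2.09 CPM (3.79, adjusted p = 0.357). Ptch1 stood at 12.8, 17.7 and 15.1 CPM against 22.2, 28.1 and 32.3 CPM and Hhip at 0.391, 1.91 and 0.298 CPM against 2.13, 4.59 and 3.3 CPM. Dhh stood at 0.0435, 0.159 and 0.194 CPM against 2.03, 2.71 and 1.75 CPM (4.02, adjusted p = 0.367). Gli1 was at 0.424, 0.0734 and 0 CPM and Gli2 at 0.162, 0.459 and 0.385 CPM in CON-OLD-iBP, beside OLD, and Gli1 was also higher in CKO-YOUNG (5.56, 4.22 and 4.52 CPM) than in CON-YOUNG (0.651, 0.993 and 0.61 CPM). For Gli2 the young control was not low throughout, with 4.16, 5.2 and 0.359 CPM in CON-YOUNG and 9.69, 10.3 and 11.5 CPM in CKO-YOUNG. CON-YOUNG 1 and 2 thus lay within or above the CKO-OLD range of Gli2. The list as a whole was not higher in young cells, with 5 of 13 above 0 and a median of -0.05.

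Dhh is made by Schwann cells, and most tested markers of those cells were also above 0. Of 9 tested Schwann and glia markers 7 were above 0, 5 of them without overlap, and 2 were below 0 (median 3.77). No values are given for those 2, and the genes named below were all higher. The summed share of the list, set mostly by its most abundant members, rose less than the median member did. It was 0.00496%, 0.00188% and 0.00538% of the counts in OLD and 0.00657%, 0.00791% and 0.00865% in CKO-OLD. In CON-OLD-iBP the share was 0.00647%, 0.00406% and 0.00331%. Sox10, the defining glial transcription factor, stood at 0.101, 0.212 and 0 CPM against 6.76, 5.04 and 1.88 CPM and Cdh19 at 0, 0 and 0.0448 CPM against 2.41, 2.66 and 4.95 CPM. Cadm4, an adhesion molecule through which Schwann cells contact axons, is not in the list and stood at 0.695, 1.24 and 0.627 CPM in OLD and 22.3, 18.4 and 7.84 CPM in CKO-OLD (log2 fold change 4.24, edgeR adjusted p = 0.173). These 3 genes were separated without overlap, and Sox10 and Cadm4 were chosen after their values were seen. No listed marker was at 0 in all libraries of either group. In young cells the median of the list was -0.26. The part of Schwann cell transcripts in the Hedgehog and developmental genes was not tested.

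BMP and TGF-beta genes, which drive osteoblast commitment, were above 0 in 24 of 38 (median log2 fold change 0.26), with 10 higher and 2 lower without overlap. Extracellular inhibitors of BMP were among the 10: Chrd stood at 2.9, 3.25 and 2.45 CPM in OLD and 14.8, 18 and 10.6 CPM in CKO-OLD (log2 fold change 2.33, edgeR adjusted p = 0.271), and Nog at 4.81, 12.3 and 5.01 against 15.2, 13.7 and 34.1 CPM. Chrd was at 2.87, 5.17 and 1.74 CPM in CON-OLD-iBP. Of 20 FGF genes, 12 were above 0 against all OLD libraries (median 0.50) but 8 against OLD 2 alone (median -0.25). Without overlap 3 were higher (Fgf5, Fgfr2 and Fgfr3) and 3 lower (Spred1, Dusp6 and Etv5). Fgfr2, a receptor of osteoblast progenitors, stood at 43.5, 63.1 and 46.4 CPM in OLD and 63.2, 86.5 and 126 CPM in CKO-OLD, and Fgfr3, the receptor that restrains growth plate cartilage, at 13.5, 7.09 and 15.5 CPM against 16.9, 28.4 and 51.8 CPM. Spred1 and Etv5, a feedback inhibitor and a target of FGF signalling, went the other way: Spred1 stood at 185, 129 and 189 CPM against 101, 114 and 107 CPM and Etv5 at 73.8, 45.2 and 69.5 CPM against 26.1, 40 and 34.7 CPM.

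Imprinted genes, expressed from 1 parental copy and mostly shut down after birth, were above 0 in 15 of 18 (median log2 fold change 0.51; 0.60 against OLD 2 alone), 5 of them higher and 0 lower without overlap. Cdkn1c, a cell cycle inhibitor, stood at 1.56, 2.81 and 1.18 CPM in OLD and 9.67, 7.43 and 7.59 CPM in CKO-OLD (2.15, edgeR adjusted p = 0.306). It is also among the 21 genes called in young cells, at 1.3, 1.08 and 1.7 CPM in CON-YOUNG and 7.03, 5.72 and 24.3 CPM in CKO-YOUNG. Plagl1, a transcription factor of the imprinted network, stood at 12.7, 32.1 and 10.2 CPM against 54, 89.8 and 203 CPM (2.66, adjusted p = 0.334), with 103, 67.8 and 36.1 CPM in CON-OLD-iBP. Cdkn1c was at 1.92, 1.87 and 4.01 CPM in CON-OLD-iBP and did not reach the knockout level there.

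Genes of bone matrix and mineralisation were above 0 in 18 of 21 (median log2 fold change 0.53; 0.46 against OLD 2 alone), with 7 higher and 1 lower without overlap and none past the test. Alpl, the phosphatase that releases phosphate for mineral, stood at 171, 83.7 and 182 CPM in OLD and 335, 672 and 308 CPM in CKO-OLD (log2 fold change 1.59, edgeR adjusted p = 0.548). Smpd3, a sphingomyelinase needed for mineralisation, stood at 6.33, 2.46 and 5.69 CPM against 14.2, 18.6 and 20.2 CPM (1.87, adjusted p = 0.367). Omd, the keratan sulfate proteoglycan osteomodulin, stood at 15.6, 8.1 and 12.9 CPM against 41.3, 72.6 and 75 CPM (2.37, adjusted p = 0.503). In all 3 genes the lowest knockout library was above the highest OLD library, and OLD 2 was the lowest of the OLD libraries. Bglap, the gene of osteocalcin, stood at 25.2, 39.5 and 27.3 CPM against 83.6, 43.2 and 49.5 CPM (0.94, SE 1.16, adjusted p = 0.88), and its near-identical neighbour Bglap2 at 35.2, 57.3 and 40.1 against 110, 60.9 and 65.1 CPM, so reads of the pair cannot be told apart. Spp1, the gene of osteopontin, which macrophages and osteoclasts also make, was lower without overlap, at 15782, 13640 and 15652 CPM against 11959, 11526 and 10345 CPM. Col1a1, the main collagen of bone, overlapped at 10220.0, 5648 and 10477 against 11986, 13548 and 7138 CPM. The matrix list had a median of -0.32 in young cells, with 6 of 21 above 0.

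Among osteoblast transcription factors 13 of 18 were above 0 (median log2 fold change 0.36), against 11 of 18 and a median of 0.15 with OLD 2 alone, and Sp7, Msx1 and Runx3 were higher without overlap. Sp7, which is required for osteoblast formation, stood at 60.4, 80.8 and 62.1 CPM in OLD and 124, 146 and 119 CPM in CKO-OLD (0.93, edgeR adjusted p = 0.606), and at 34.8, 78.5 and 25.6 CPM in CON-OLD-iBP. Pth1r, the parathyroid hormone receptor, stood at 84.2, 26.4 and 81.8 CPM in OLD and 172, 176 and 122 CPM in CKO-OLD (1.29, adjusted p = 0.523), and its levels in CON-OLD-iBP were 23.6, 42.3 and 19.4 CPM. In young cells Sp7 went the other way in mean, with 247, 167 and 73 CPM in CON-YOUNG and 161, 130 and 66.1 CPM in CKO-YOUNG, and 5 of the 18 factors were above 0. Dmp1, an osteocyte gene, was high in CKO-OLD 1 alone, at 63.1 CPM against 3.07 to 3.84 CPM in OLD and 3.66 and 3.8 CPM in CKO-OLD 2 and 3.

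**Figure D5:**
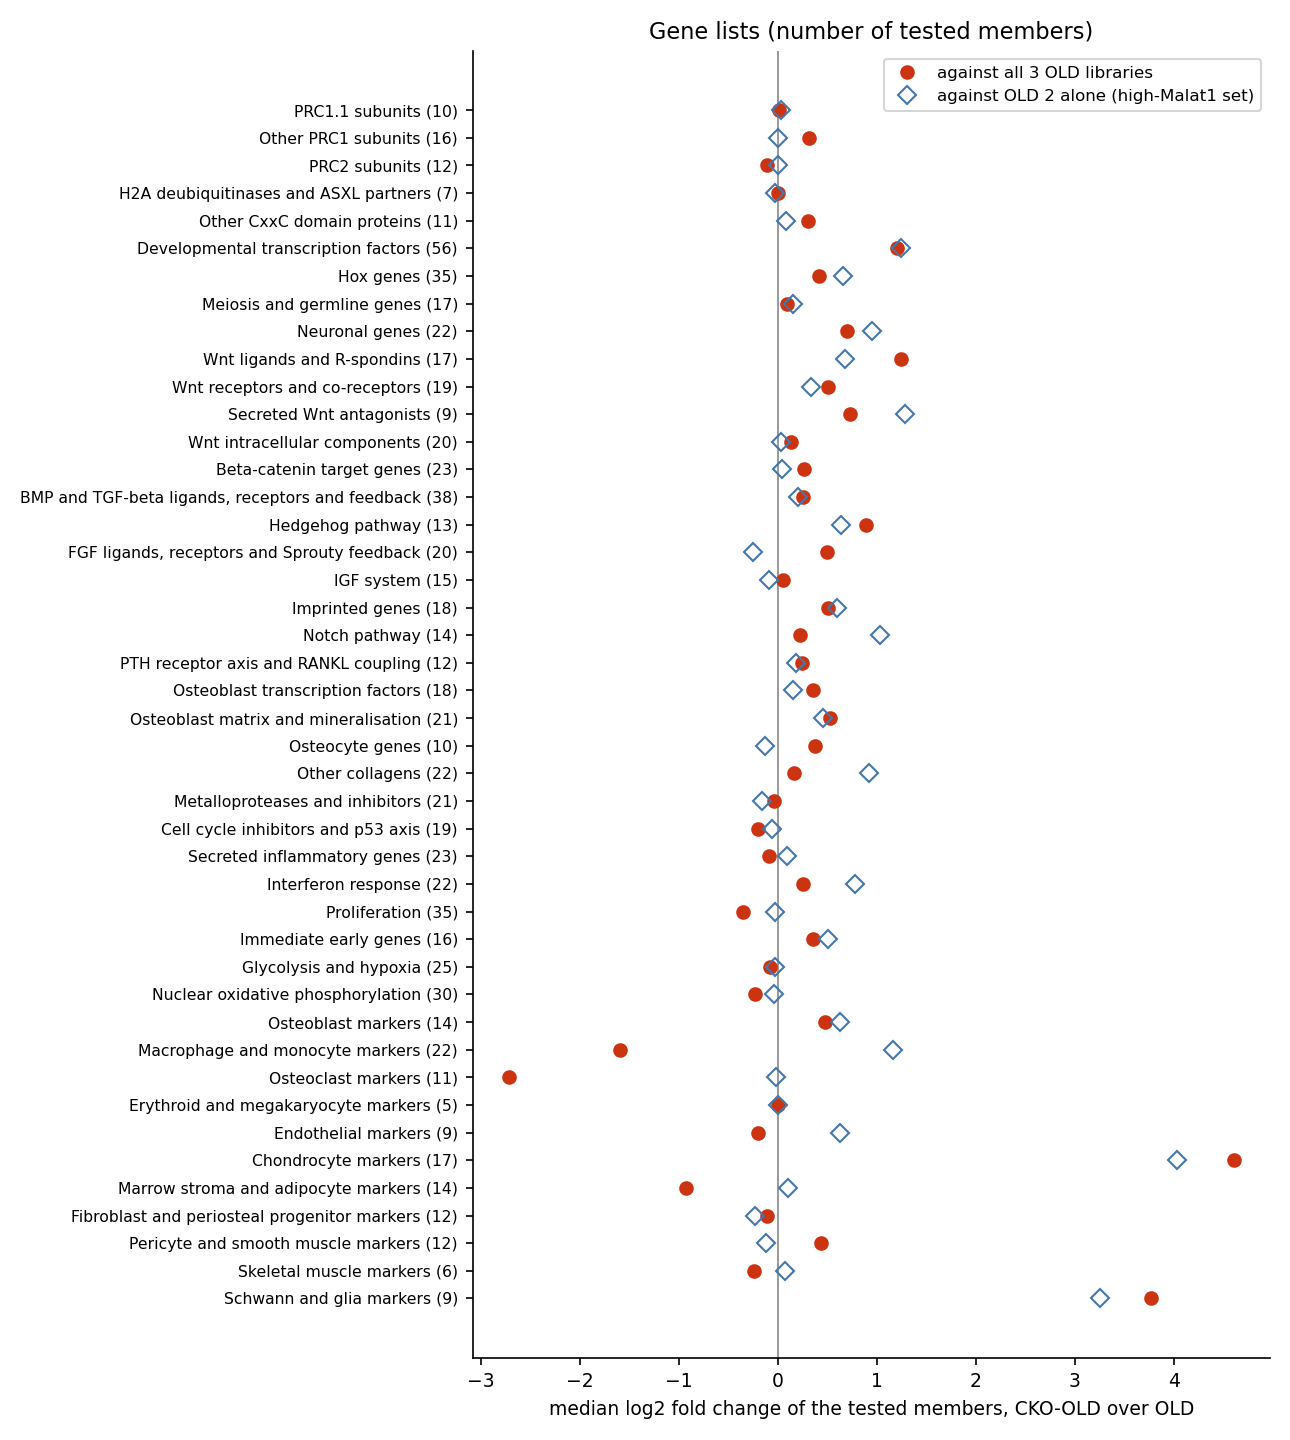
Median log2 fold change of the tested members of each gene list (number of members in brackets), for CKO-OLD against all 3 OLD libraries (red dots) and against OLD 2 alone (blue diamonds); lists with fewer than 5 tested members are not drawn. Developmental transcription factors keep their median in both readings (1.20 and 1.25), whereas macrophage markers move from -1.59 to 1.17. With members at 0 in a group set at their bound, the endothelial median moves from -0.20 to -0.07.

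Markers of blood-derived cells depended on the OLD library. All 22 macrophage and monocyte markers were below 0 (median log2 fold change -1.59), yet all 22 were above 0 against OLD 2 alone (median 1.17), and none was separated without overlap. Csf1r, the receptor macrophages need to survive, stood at 815, 87.9 and 842 CPM in OLD and 95.2, 389 and 107 CPM in CKO-OLD, and Mrc1, the mannose receptor, at 175, 11.4 and 167 against 6.29, 22.7 and 7.7 CPM. Osteoclast markers were below 0 in 10 of 11 (median -2.71; -0.02 against OLD 2 alone). Acp5, the acid phosphatase of osteoclasts, stood at 596, 25.8 and 632 CPM against 6.56, 95.1 and 3.66 CPM. Markers of lymphocytes, neutrophils and red cells were near 0 in both groups: Cd3d, Cd3e and Cd3g of T cells and all 4 globin genes had no count in either group.

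Chondrocyte markers were above 0 in 14 of 17 (median log2 fold change 4.60; 4.03 against OLD 2 alone), with 5 higher without overlap. Most of their counts came from CKO-OLD 3, and 3 markers, Col9a1, Cnmd and Snorc, had no count in any OLD library but some in CKO-OLD, while Epyc had none in either group. One CON-OLD-iBP library also held 7591 CPM of Col2a1, against 12.1 and 264 CPM in the other two. In young cells the list had a median of -2.01. Marrow stroma and adipocyte markers were below 0 in 12 of 14 (median -0.93; 0.10 against OLD 2 alone). Cxcl12, the chemokine of marrow stroma, stood at 1398, 97.6 and 1360.2 CPM in OLD against 69.9, 86.8 and 180 CPM in CKO-OLD.

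Proliferation genes were below 0 in 33 of 35 (median log2 fold change -0.35), with 10 lower and 1 higher without overlap. Against OLD 2 alone the median was -0.03 and 15 of 35 were above 0. Mki67, a marker of cycling cells, stood at 161, 82.7 and 150 CPM in OLD and 79.3, 130 and 99.7 CPM in CKO-OLD, and Pcna, the replication clamp, at 210, 60 and 221 against 93.7, 81.6 and 52.6 CPM. For both, OLD 2 was as low as the knockout. Of 30 nuclear genes of oxidative phosphorylation 5 were above 0 (median -0.22), and 6 were above 0 against OLD 2 alone, where the median was -0.03. Cdkn2a, the senescence-associated inhibitor gene, stood at 168, 138 and 172 CPM against 144, 77.5 and 97.9 CPM (log2 fold change -0.58, SE 1.06, edgeR adjusted p = 0.933).

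Immediate early genes, which respond within minutes to stimulation or handling, were above 0 in 12 of 16 (median log2 fold change 0.35), 6 of them higher without overlap, and in 16 of 16 against OLD 2 alone (median 0.50). Fosb stood at 142, 159 and 145 CPM in OLD and 427, 230 and 399 CPM in CKO-OLD, and Egr1 at 413, 399 and 411 against 484, 553 and 650 CPM (edgeR adjusted p = 0.838 and 0.875). In young cells 2 of 16 were above 0, with a median of -0.50. Interferon response genes were above 0 in 15 of 22 (median 0.26), and in 21 of 22 against OLD 2 alone (median 0.78). Isg15, an induced ubiquitin-like protein, stood at 14, 7.45 and 14.1 CPM against 23.9, 45.1 and 14.5 CPM, and CKO-OLD 2 was the high library.

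Whether the knockout difference depended on age was tested directly, as the difference in old cells minus that in young cells. By edgeR over all 18 libraries 0 of 16566 genes passed, with 796 at an unadjusted p under 0.05, 48 called by DESeq2 and 2742 by limma-voom. For Tcfl5 the difference between ages was 0.34 on the log2 scale (edgeR adjusted p = 1.0), and for Isyna1 and Epop it was -0.33 and -0.14 (adjusted p = 0.992 and 1.0). The 12 largest increases and 12 largest decreases were chosen by their difference in old cells. That difference is itself part of this contrast, so the choice favours small p-values here. Of the 12 largest increases in old cells 7 had an unadjusted edgeR p under 0.05 for this difference, and of the 12 largest decreases 5, with no adjusted p below 0.963. No gene was therefore shown to respond differently at the 2 ages by this test.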

How the data were processed

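Total RNA of cultured femoral osteoblasts was sequenced. Per the submitters' processing notes, FastQC, Trim Galore and HISAT2 were used with the mm39 build; versions, counting program, annotation and strand setting are not given in the sources used. Raw counts of reads for each gene symbol were deposited for all 18 RNA libraries (26264 symbols, of which 24964 matched the gene name table, and 20832 with at least 1 count). The 8 CUT&Tag samples were not analysed here. Groups were taken from the titles.

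Counts were scaled with TMM, filtered with edgeR's filterByExpr (minimum count 10, minimum total 15; 16566 genes kept) and fitted with edgeR 4.0.16's robust quasi-likelihood test (R 4.3.3), 1 coefficient per group over all 18 libraries with 12 residual degrees of freedom; p-values were adjusted by Benjamini-Hochberg over all tested genes, with a threshold of 0.05. All comparisons used these deposited counts. Alternatives were DESeq2 1.42.0, limma-voom (limma 3.58.1) with sample quality weights, other scalings and filters, library set by Malat1 share, the replicate number as a block, and each library left out. Same-numbered CON-YOUNG and CKO-YOUNG libraries deviated together (correlations 0.193, 0.237 and 0.305), so the young pair was also fitted with the number as a block; no label says what the number stands for. The edgeR script was tested on simulated data. Genes named were Kdm2b, Tcfl5, Axin2, Lef1, Bglap and Cdkn2a, the called genes, the 12 largest non-overlapping differences in each direction, genes called by library set, the 8 smallest p-values without OLD 2 and up to 4 members per list (46 lists). Predicted and sex-linked symbols were left out of the names by rank, and some other genes that these rules pick are not reported here. Added after their values were seen were Nrbp2, Npr1, Mdk, Caskin1, Bdh1, Spon1, Cadm4, Sox10, Hhip, Wnt4, Wnt11, Spp1, Bglap2, Col1a1, Csf1r, Mki67, Egr1 and Isg15. The members and lists were chosen with earlier results of these data known. Total counts of 46272076 to 67721904 per library in OLD and CKO-OLD limit precision for genes near 0. Figures were drawn with matplotlib 3.10.9.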

Additional observations from a re-analysis of the deposited data

Results flagged for a closer look

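Of the 12 largest increases 4, and of the 12 largest decreases 4, also separated all CON-OLD-iBP libraries, which carry intact Kdm2b, from all OLD libraries in the direction seen in CKO-OLD. Over all 16566 tested genes CON-OLD-iBP lay above OLD without overlap for 14.3% and below it for 15.8%, and the genes named here were chosen on the same OLD libraries. On the higher side the lowest CON-OLD-iBP level was 0.569 CPM for Meltf, 0.222 CPM for Cntn1, 0.202 CPM for Bmp7 and 3.54 CPM for Moxd1, each above the highest OLD library. On the lower side the highest CON-OLD-iBP level was 6.28 CPM for Styk1, 1.3 CPM for Dpt and 0.486 CPM for Rarres2, each below the lowest OLD library. CON-OLD-iBP differs from OLD in the Ocn-cre driver, the reporter, the iBP treatment and the Malat1 share, which cannot be told apart here.

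Within the high-Malat1 set the knockout difference in old cells minus that in young cells passed the edgeR test for H2-T22 (-3.64 on the log2 scale, adjusted p = 0.0247), Myom1 (-5.14, adjusted p = 0.0247), Spink5 (12.4, adjusted p = 0.0247) and a Y-linked gene. Each value rests on 1 CON-YOUNG, 1 CKO-YOUNG and 1 OLD library, assumed to vary like the other groups. Over all library sets the differences were -0.70 for H2-T22 (edgeR adjusted p = 0.997), -1.45 for Myom1 (adjusted p = 0.965) and 11.7 for Spink5 (adjusted p = 0.963). CKO-YOUNG 3, the young knockout library here, held both Xist (372 CPM) and Ddx3y (21.3 CPM). H2-T22, a class I histocompatibility gene with near-identical relatives, stood at 12.3 CPM in CON-YOUNG 3 and 157 CPM in CKO-YOUNG 3, against 34 CPM in OLD 2 and 33.3, 36.8 and 34.3 CPM in CKO-OLD. Myom1, a sarcomere gene, stood at 2.37 and 36 CPM in those young libraries, against 6.54 CPM in OLD 2 and 2.03, 4.05 and 2.34 CPM in CKO-OLD. Spink5, a protease inhibitor gene, stood at 15.1 CPM in CON-YOUNG 3 and 0 in all CKO-YOUNG libraries, so its fitted difference depends on the model's prior.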

How the results depend on the processing

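Tcfl5 stayed above 0 in every alternative run. Leaving out 1 library at a time gave log2 fold changes of 3.35 to 3.67, and the edgeR call was lost without OLD 1 (3.41, adjusted p = 0.138) and without OLD 3 (3.67, adjusted p = 0.0733). It was also lost with OLD 1 and OLD 3 summed (3.53, adjusted p = 0.0965) and with OLD 2 as the only OLD library (3.57, adjusted p = 1.0), both chosen after seeing the data; these fits hold fewer samples. The number of genes called between CKO-OLD and OLD ranged from 0 (without OLD 1 or OLD 3) to 48 (without OLD 2) when 1 library was left out. It was 0 with OLD 1 and OLD 3 summed (571 at an unadjusted p under 0.05) and with OLD 2 alone (245), 2 with no filter on low counts, 4 with the library set term, 9 within the high-Malat1 set, 4 over the 6 libraries alone, 181 with DESeq2 and 6820 with limma-voom. The voom fit weights libraries by their quality; the cause of its count was not tested. For old minus young the counts were 0 with edgeR, 48 with DESeq2, 2742 with limma-voom and 4 within the high-Malat1 set. Of 224 other named genes, 46 changed sign with OLD 2 as the only OLD library, 41 within the high-Malat1 set, 32 with the set term and at most 5 in any other alternative. Depth limits genes near 0 CPM.

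Replicate numbers did not pair the old samples: same-numbered OLD and CKO-OLD libraries had correlations of -0.0795, -0.312 and -0.161. With the number as a replicate block over the 6 libraries 0 genes were called (1249 at an unadjusted p under 0.05), and Tcfl5 had a log2 fold change of 3.53 (edgeR adjusted p = 0.296). For old minus young the replicate block gave 0 genes. The young knockout against its control gave 21 genes over all libraries, 4 with the young pair alone and 0 with the young pair alone and the replicate block, both chosen after seeing the data.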
